A study of Mus musculus with 33 samples.

Results

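The glutathione and thioredoxin antioxidant genes are the genes whose symbols name a cytosolic glutathione transferase, a microsomal glutathione transferase, a glutathione peroxidase, a peroxiredoxin, a thioredoxin, a thioredoxin reductase or a superoxide dismutase, together with Gclc, Gclm, Gsr, Gss, Srxn1, Nqo1, Cat, Nfe2l2 and Keap1. They were picked by a rule on the symbol, but the set was chosen with earlier results of these data known. They number 57 of the 24421 genes in the count files. The study asked what the transcription factor ZEB2 does in tissue-resident macrophages (macs) by deleting Zeb2 from liver Kupffer cells (KCs) and lung alveolar macs (AMs). Bulk RNA-seq was done on 33 samples of 25000 cells each, sorted from C57Bl/6 mice of 6 to 8 weeks. All samples, controls included, came from Zeb2 fl/fl mice, in which both Zeb2 alleles are flanked by loxP sites. CRE- KCs (n = 6) and CRE- AMs (n = 5) came from Zeb2 fl/fl mice without Cre. Tim4+ KCs (n = 6) and Tim4- KCs (n = 6) were CRE+ cells of Clec4f-crexZeb2 fl/fl mice, and CD11b- AMs (n = 5) and CD11b+ AMs (n = 5) were CRE+ cells of Itgax-crexZeb2 fl/fl mice.

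Clec4f is restricted to KCs, but the Clec4f-cre line also marks a few B cells, and Itgax, which encodes CD11c, is used by dendritic cells as well as AMs. The CRE+ sorts held cells that had kept a Zeb2 copy next to cells that had lost both. The deleted allele still gives a truncated Zeb2 transcript, so Zeb2 counts do not check the deletion. As counts scaled to a common library size (CPM) they were 229 to 339 in CRE- KCs, 146 to 211 in Tim4+ KCs, 149 to 196 in Tim4- KCs, 169 to 205 in CRE- AMs, 84.7 to 114 in CD11b- AMs and 50.3 to 70.2 in CD11b+ AMs. The sources do not say which samples share a mouse, so p-values measure the spread between these samples. Tissue and Cre line changed together and cannot be told apart.

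Glutathione, a small thiol made by glutamate-cysteine ligase (Gclc and Gclm) and glutathione synthetase (Gss), is the main soluble reductant of the cell and is kept reduced by glutathione reductase (Gsr). Glutathione peroxidases use it to remove peroxides, and glutathione transferases couple it to electrophiles. Thioredoxin, recharged by thioredoxin reductase, does the parallel work for the peroxiredoxins, while superoxide dismutases and catalase act without either thiol. NRF2 (Nfe2l2) binds antioxidant response elements (AREs) in the promoters of many of these genes, and KEAP1 keeps NRF2 low until oxidants or electrophiles release it. AMs live in the air spaces and KCs in liver sinusoids that carry blood from the gut.

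The promoters of 49 of the 57 members were in the RefSeq set, with 63 start sites, each a window of 300 bases from 250 before to 50 after the start (build GRCm38.p6). The ARE core TGACNNNGC, read on both strands, was in the windows of 10 members, Gclm, Srxn1, Prdx1, Txnrd1, Mgst1, Gsta3, Gstm5, Gstm7, Sod1 and Nfe2l2. By window that was 15.87%, against 12.39% of all 32851 promoter windows. The E-box CAGGTG, which ZEB proteins can bind, was in 14.29% of member windows and 20.21% of all windows, and the AP-1 site TGACTCA, whose letters can overlap an ARE core, in 9.524% and 5.202%. A match is a description of the letters and not evidence of binding, and no match says only that these letters are not in the window. The windows of Gstm1, Gstm4 and Nqo1 held no ARE core, and that of Mgst2 held an AP-1 site only. Prdx6 was not matched. Of the ARE-bearing genes, 4 are printed because their transcripts were all higher in CD11b- AMs than in CRE- AMs, as given below. Sod1, also with an ARE core, was called higher there as well, but that call was lost when single replicates were left out, and its window is not printed. The call of Txnrd1 was lost in a fit over all 33 samples (adjusted p = 0.0874). Mgst1, Gstm5 and Nfe2l2, which also hold an ARE core, were not called in CD11b- AMs. The 4 windows were picked by the change of their genes, so they cannot show whether an ARE core goes with higher transcripts. The ARE core is in capitals, and as all 4 read on the strand opposite to the gene it is printed as its reverse complement, GCNNNGTCA.
Gclm, chr3:122245307-122245606, plus strand: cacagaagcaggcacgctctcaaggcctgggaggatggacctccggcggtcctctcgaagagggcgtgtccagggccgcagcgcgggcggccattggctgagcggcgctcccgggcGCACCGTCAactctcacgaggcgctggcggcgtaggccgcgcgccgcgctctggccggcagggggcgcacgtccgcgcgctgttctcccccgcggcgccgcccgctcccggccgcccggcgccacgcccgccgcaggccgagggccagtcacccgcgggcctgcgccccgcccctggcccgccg
Srxn1, chr2:152105274-152105573, plus strand: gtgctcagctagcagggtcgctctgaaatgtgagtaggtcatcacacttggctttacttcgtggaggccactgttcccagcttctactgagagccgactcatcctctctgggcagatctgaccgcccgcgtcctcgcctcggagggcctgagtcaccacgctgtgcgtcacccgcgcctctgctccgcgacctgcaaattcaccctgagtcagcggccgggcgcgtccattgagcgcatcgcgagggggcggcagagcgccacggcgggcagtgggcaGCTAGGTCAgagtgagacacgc
Prdx1, chr4:116685349-116685648, plus strand: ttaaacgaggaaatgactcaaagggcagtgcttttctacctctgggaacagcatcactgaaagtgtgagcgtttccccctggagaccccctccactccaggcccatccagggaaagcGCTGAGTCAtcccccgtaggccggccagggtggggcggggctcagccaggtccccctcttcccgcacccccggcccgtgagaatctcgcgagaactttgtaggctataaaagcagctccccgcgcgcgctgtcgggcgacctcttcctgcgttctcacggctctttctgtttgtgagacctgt
Txnrd1, chr10:82858956-82859255, plus strand: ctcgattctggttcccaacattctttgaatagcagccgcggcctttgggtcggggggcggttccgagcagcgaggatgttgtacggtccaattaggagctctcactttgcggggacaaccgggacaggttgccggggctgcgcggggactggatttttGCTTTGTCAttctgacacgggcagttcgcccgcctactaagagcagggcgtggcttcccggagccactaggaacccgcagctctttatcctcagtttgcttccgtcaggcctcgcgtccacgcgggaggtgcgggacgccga
With the start site counted as 0, the core began at -134 in Gclm, -133 in Prdx1, -92 in the window shown of 3 of Txnrd1, and 28 in Srxn1. The core of Prdx1 overlapped an AP-1 site, and the Srxn1 window held AP-1 sites at -102 and -45.

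Libraries held 9837240 to 24332306 reads counted on genes, the shallowest being Tim4- KC replicate 1, and 3 counts, taken as the floor, equal 0.123 CPM in the deepest and 0.305 CPM in the shallowest library. In KC replicates 5 and 6 of all 3 groups, 6 libraries in all, Y-linked genes were counted and Xist was not, as in male mice, and the other libraries had Xist and at most 4 Y-linked counts. The 6 KC markers were all present in KCs, with Timd4 at a mean of 2.83 CPM in Tim4- KCs, and Clec4f stayed under 1 CPM in every AM library. Of the 6 KC markers, 3, 3 and 5 exceeded 1 CPM in CRE-, CD11b- and CD11b+ AMs, with Nr1h3 highest at means of 73.3, 112 and 139 CPM. The AM markers Car4 and Krt79 stayed under 1 CPM in every KC library, but the other 4 of 6 exceeded it in each KC group. Marco had means of 604, 1608 and 258 CPM in CRE-, Tim4+ and Tim4- KCs and 405 in CRE- AMs. Siglecf had 4.53, 169 and 292 CPM in these KCs and 528 in CRE- AMs. CPM values were normalized by TMM over all 33 libraries, errors of levels are SD, and log2 fold changes carry their standard error and an edgeR quasi-likelihood p-value adjusted over all genes of the fit. A member is called at an adjusted p under 0.05.

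Members took 0.726% to 1.10% of the reads on genes. Per kilobase of transcript, Gpx1, the cytosolic glutathione peroxidase, was the highest member in all 6 groups, at 3971 ± 521 CPM per kb in CRE- KCs and 1794 ± 202 in CRE- AMs. Prdx1, a cytosolic peroxiredoxin, came next at 701 ± 55.3 and 1031 ± 75.9 CPM per kb. In CRE- KCs the following places were held by Prdx5, at 336 ± 21.8, and Txn1, the cytosolic thioredoxin, at 266 ± 28.3 CPM per kb. In CRE- AMs they were held by Mgst1, a microsomal transferase, at 440.1 ± 43.7, and Gpx4, the peroxidase of lipid hydroperoxides, at 404 ± 38.2 CPM per kb, and these last levels lay within their spread of each other. Gpx5, Gpx6 and Prdx6b had no count in any library. Including them, 8 members, also Gpx2, Gpx2-ps1, Gsta1, Gsta2 and Gstt4, had too few counts for any test, 39 were tested in all 7 comparisons of groups, and 46 were called in at least 1 comparison.

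**Figure D1:**
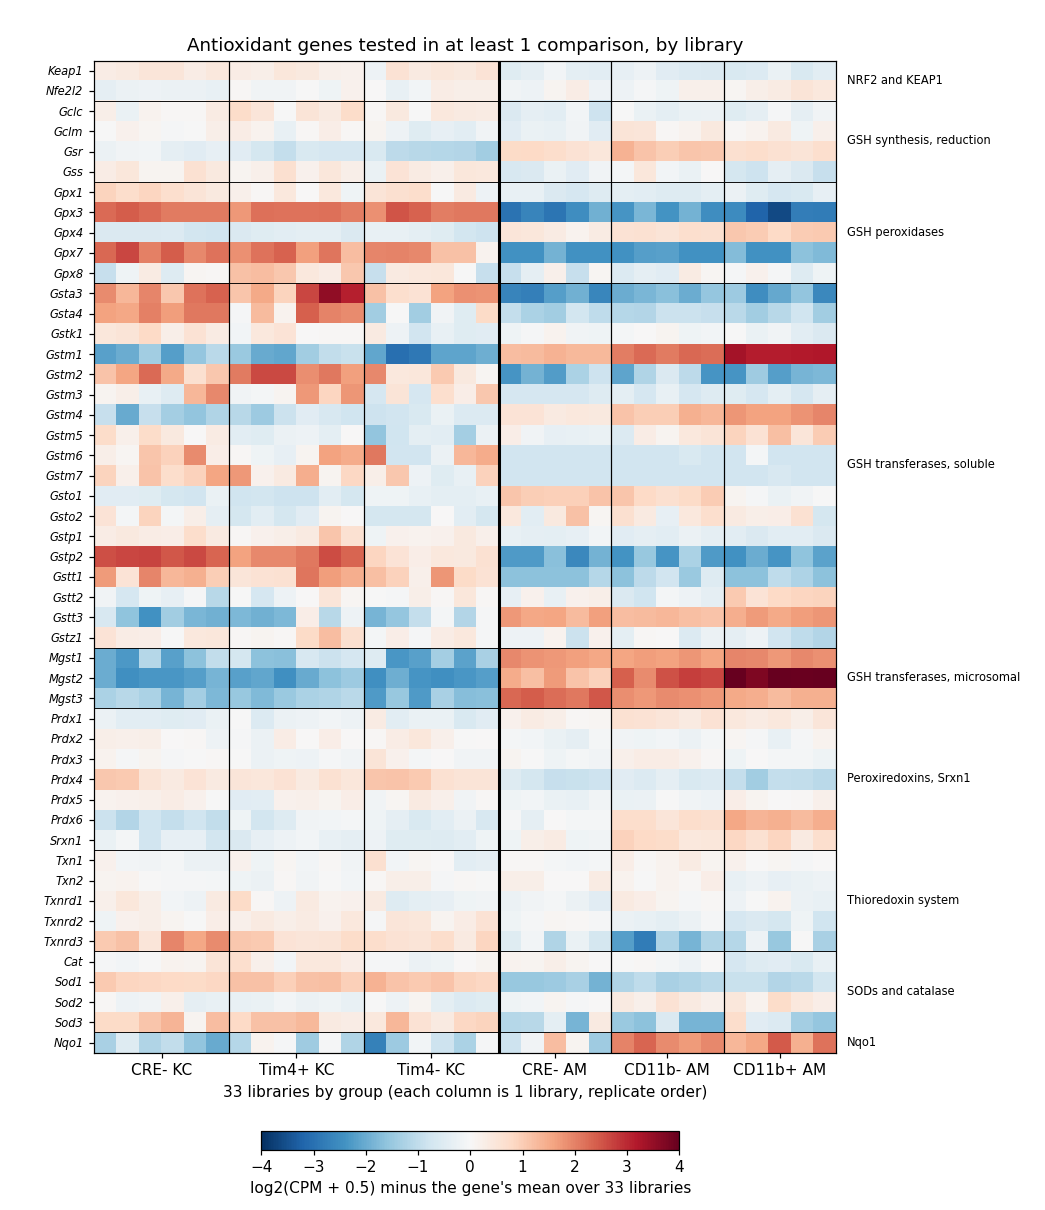
Each row is 1 of the 49 members tested in at least 1 comparison and each column 1 library, with the 18 KC libraries left and the 15 AM libraries right of the thick line. Colour is log2(CPM + 0.5) minus the gene's mean over the 33 libraries, and the colour scale ends at 4 in either direction. Gpx3, Gpx7 and Gstp2 are high in KCs, the 3 microsomal transferases are high in AMs, and Gstm1, Mgst2 and Prdx6 step up across the 3 AM groups.

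The first comparison set CRE- KCs against CRE- AMs, to see how the control macs of the tissues differ. Control KCs had more Gpx1, Gpx3, Gpx7, Sod1 and Prdx4 and transcripts of the alpha, pi and theta transferases Gsta3, Gsta4, Gstp2 and Gstt1, while control AMs had more of the mu transferases Gstm1 and Gstm4, of Gstt3 and Gsto1, and of all 3 microsomal transferases. Of 47 members tested, 25 were called higher in KCs and 14 higher in AMs, and 14 and 8 of these by more than 2-fold. Of all 12145 genes tested, 33.3% were called higher and 29.9% lower in KCs, and 20.9% and 12.4% by more than 2-fold, where the members' shares were 53.2% and 29.8%, the latter near that of all genes. The median log2 fold change was 0.37 over the members tested and 0.03 over all genes. With the KC libraries of male mice left out, 23 members were higher and 11 lower. Bulk samples cannot tell fewer cells of a type from less RNA per cell.

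Among the peroxidases, the lowest, median and highest levels of Gpx1 in CRE- KCs were 3464, 4258 and 4888 CPM, and the 5 CRE- AM samples had 2149, 2151, 1780.0, 1680.1 and 1856 CPM. Every KC sample was above every AM sample (log2 fold change 1.16 ± 0.10, adjusted p = 7.36e-08). Gpx3, a secreted peroxidase, had 172 ± 17.4 CPM in KCs and 5.92 ± 2.01 CPM in AMs (log2 fold change 4.87 ± 0.18, adjusted p = 6.90e-12). Gpx7, which works in the endoplasmic reticulum, had 9.77 to 16.8 CPM in KCs and at most 0.229 CPM, a level near the floor, in AMs. Gpx4 went the other way, with 174, 204 and 205 CPM as lowest, median and highest in KCs and 428, 416, 378, 335 and 379 CPM in AMs (log2 fold change -0.97 ± 0.07, adjusted p = 1.85e-08). A processed copy, Gpx4-ps2, shares 37.9% of the 35-base windows of Gpx4, so some of its reads could have been counted there.

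Glutathione transferases differed in both directions. Of the 17 soluble transferases tested, 11 were called higher in KCs and 4 higher in AMs, while summed over all 21 such members their level was 266 to 338 CPM per kb in KCs and 657 to 711 CPM per kb in AMs. Gstm1 and Gsto1, at 301 ± 11.3 and 275 ± 18.6 CPM per kb, gave most of the AM sum. Gstm1, a mu-class enzyme, had 33.5, 46.3 and 74.2 CPM as lowest, median and highest in CRE- KCs and 373, 378, 411, 389 and 391 CPM in CRE- AMs. No KC sample came near an AM sample (log2 fold change -2.97 ± 0.18, adjusted p = 1.69e-09). Gsto1, an omega-class enzyme that also reduces dehydroascorbate, had 112 ± 14.2 CPM in KCs and 326 ± 21.96 in AMs (log2 fold change -1.53 ± 0.09). Gstm4 (log2 fold change -1.79 ± 0.18) and Gstt3 (-3.29 ± 0.29) were also higher in AMs. Microsomal transferases sit in membranes, where Mgst2 and Mgst3 can also act on leukotriene A4. Mgst1 had 49.98 ± 19.6 CPM in KCs and 514 ± 50.9 in AMs, Mgst3 had 11.7 ± 2.47 and 162 ± 16.7, and Mgst2 had at most 0.260 CPM in any CRE- KC library and 7.22, 5.85, 8.37, 5.56 and 4.70 CPM in AMs. All 3 separated the groups without overlap, with log2 fold changes of -3.35 ± 0.22, -3.78 ± 0.14 and -5.77 ± 0.52.

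Several soluble transferases stood on the KC side. Gstp2, a pi-class transferase, had 25.5, 31.3 and 33.7 CPM as lowest, median and highest in CRE- KCs and 0.580, 0.585, 1.14, 0.380 and 0.910 CPM in CRE- AMs (log2 fold change 5.41 ± 0.23, adjusted p = 2.58e-11). It shares 58.6% of its 35-base windows with other genes, and 53.4% with Gstp1, so the split of reads between these 2 genes is uncertain. Gsta3, an alpha-class enzyme, had 6.59 to 16.6 CPM in KCs and at most 0.380 in AMs, and Gsta4, which conjugates the lipid aldehyde 4-hydroxynonenal, had 3.35 to 5.21 and at most 0.285 CPM. Gstt1 (log2 fold change 6.35 ± 0.80) and Gstm2 (4.22 ± 0.69) showed the same pattern at means of 3.59 and 6.58 CPM in KCs. Gstm6 and Gstm7 had no count in any CRE- AM library and were at least 37.2-fold and 39.9-fold higher in KCs, with 3 counts over the AM group as the floor. All of the hepatocyte list, 10 of 10 markers, exceeded 1 CPM in CRE- KC libraries, at a summed 2201 to 3213 CPM, of which Trf gave a mean of 2385 and Alb 111. In CRE- AMs the sum was 3122 to 3794 CPM, from Trf (3272) and Fabp1 (193), while the other 8 markers, Alb included, stayed under 1 CPM in every library. The part of hepatocyte transcripts in these transferase levels was not tested.

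Of the genes for glutathione supply, the ligase subunits Gclc (log2 fold change 0.55 ± 0.13) and Gclm (0.40 ± 0.08) and the synthetase Gss (0.78 ± 0.13) were higher in KCs, while Gsr was higher in AMs, at 279 ± 25.1 CPM in KCs and 531 ± 50.2 in AMs (log2 fold change -0.92 ± 0.08, adjusted p = 6.70e-08). Among superoxide dismutases, Sod1, the cytosolic copper and zinc enzyme, had 62.8, 65.3 and 76.8 CPM as lowest, median and highest in KCs and 12.5, 12.4, 13.03, 14.5 and 9.56 CPM in AMs (log2 fold change 2.44 ± 0.11, adjusted p = 5.15e-11). Sod2, the mitochondrial enzyme, was at 128 ± 19.1 and 134 ± 9.85 CPM (log2 fold change -0.06 ± 0.10, adjusted p = 0.583), and Cat, the catalase, at 250.1 ± 42.4 and 252 ± 13.6 CPM (-0.00 ± 0.10, adjusted p = 0.991), neither of which was called. Prdx4, the peroxiredoxin of the endoplasmic reticulum, was higher in KCs (log2 fold change 1.46 ± 0.15), and Prdx1 (-0.55 ± 0.07) and Prdx6 (-0.82 ± 0.09), which also repairs membrane lipids, were higher in AMs. Txnrd3 (2.20 ± 0.34), the thioredoxin-glutathione reductase, Txnrd1 (0.40 ± 0.11), Sod3 (2.15 ± 0.69), which is secreted, and Keap1 (0.77 ± 0.08) were higher in KCs. Txn1 was not called (-0.05 ± 0.07, adjusted p = 0.54). Nqo1, the quinone reductase, was low in both, at 0.934 ± 0.509 CPM in KCs and 2.94 ± 2.56 in AMs, and its call (log2 fold change -1.64 ± 0.58, adjusted p = 0.0228) was lost without CRE- AM replicate 3 (log2 fold change -0.98, adjusted p = 0.146), with limma-voom (adjusted p = 0.055), with the replicate number as a block (adjusted p = 0.11) and without the male libraries (adjusted p = 0.0868). Srxn1 was called higher in AMs (-0.42 ± 0.14, adjusted p = 0.0191), which was lost without CRE- AM replicate 2 or 3 (log2 fold changes -0.36 to -0.33, adjusted p = 0.0538 to 0.0609), with the replicate number as a block (adjusted p = 0.0632) and without the male libraries (adjusted p = 0.0663). Nfe2l2 was likewise called higher in AMs (-0.24 ± 0.09, adjusted p = 0.0295), which was lost without CRE- AM replicate 3 or 4 or CRE- KC replicate 1, 2 or 6 (log2 fold changes -0.22 to -0.15, adjusted p = 0.0546 to 0.0887). The Nfe2l2 call was also lost with RLE factors (adjusted p = 0.066), with DESeq2 (adjusted p = 0.0603), with at least 10 counts required in every sample (adjusted p = 0.0597) and without the male libraries (adjusted p = 0.0828).

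**Figure D2:**
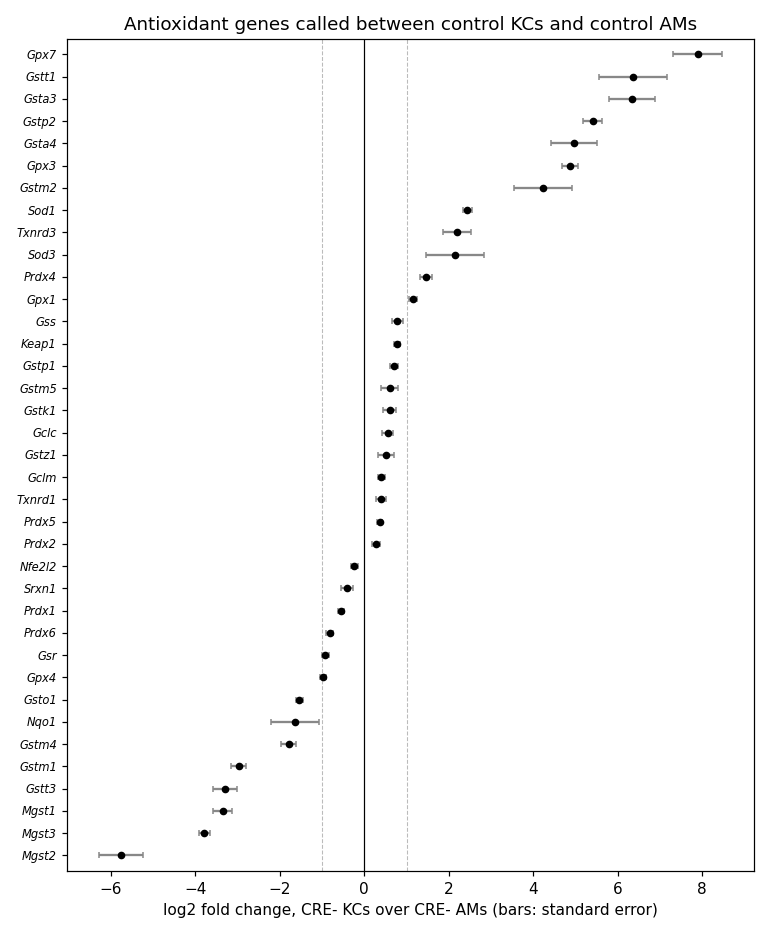
Points are log2 fold changes of CRE- KCs (n = 6) over CRE- AMs (n = 5) from edgeR, with standard errors, for the called members other than Gstm6 and Gstm7, which had no count in AMs. Dashed lines mark a 2-fold change. Gpx7 lies farthest to the KC side and Mgst2 farthest to the AM side.

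The other genes of the pathway were split as well, in a comparison where 33.3% of all genes were called higher and 29.9% lower. The counts of genes called in CRE- KCs over CRE- AMs were 1 higher and 4 lower of 9 tested for NADPH supply, 9 higher and 3 lower of 13 for transport and turnover of cystine and glutathione, 5 higher and 5 lower of 14 for glutaredoxins, thioredoxin partners and methionine sulfoxide reductases, 4 higher and 7 lower of 15 for NRF2 regulators and other NRF2 targets, and 2 higher and 4 lower of 6 for the NADPH oxidase. Cbs (log2 fold change 8.98 ± 0.88) and Cth (7.03 ± 0.62), the enzymes that make cysteine from homocysteine, were higher in KCs, and Slc7a11, the cystine importer, was higher in AMs (-7.25 ± 0.61). Osgin1 (5.94 ± 0.31) and the biliverdin reductase Blvrb (2.86 ± 0.07), both NRF2 targets, were higher in KCs, and Maff, a small MAF partner of NRF2, in AMs (-5.20 ± 0.30).

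In the lung, CD11b- AMs and CD11b+ AMs of Itgax-crexZeb2 fl/fl mice were each compared with CRE- AMs, and with each other. Members higher in the CRE+ cells included Gclm, Srxn1, Nqo1, Gstm1, Gstm4, Mgst2, Prdx6, Gpx4 and Sod2 in both sorts. Gsto1, Cat, Txn2 and Txnrd2 were lower in CD11b+ AMs. In CD11b- AMs 16 of 42 members tested were called higher and 2 lower, and 2 were higher by more than 2-fold. Of all 11573 genes, 13.3% were called higher and 12.5% lower, and 3.97% and 2.47% by more than 2-fold. In CD11b+ AMs 15 members were higher and 6 lower, 6 and 1 of them by more than 2-fold, against 22.8% and 20.4% of all genes, and 9.57% and 5.67% by more than 2-fold. For CD11b- AMs the median log2 fold change was 0.23 over the members and 0.00 over all genes, and for CD11b+ AMs 0.08 and -0.01. Both comparisons share the CRE- samples.

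Gstm1 to Gstm7 lie together on chromosome 3, Gstm1 at chr3:108012255-108017973 on the minus strand (GRCm38). Of this cluster, only Gstm1 and Gstm4 were called higher in both sorts. Gstm2, Gstm3, Gstm6 and Gstm7 had at most 1.21 CPM in any AM library. The level of Gstm1 was 373, 378, 411, 389 and 391 CPM in the 5 CRE- AM samples, 649, 758, 673, 776 and 740.1 CPM in CD11b- AMs and 1572, 1393, 1394, 1434 and 1442 CPM in CD11b+ AMs. The 3 groups formed 3 steps without overlap. The log2 fold change over CRE- AMs was 0.88 ± 0.06, adjusted p = 7.58e-10, in CD11b- AMs and 1.88 ± 0.06, adjusted p = 1.77e-15, in CD11b+ AMs. Gstm2-ps1, Gstm3 and other copies share 26.3% of the 35-base windows of Gstm1. In CD11b+ AMs it ranked 3 among the members per kilobase, at 1123 ± 56.6 CPM per kb, within the spread of Prdx1 at 1184 ± 81.5, and it was at 301 ± 11.3 CPM per kb in CRE- AMs. Gstm4, its neighbour on chromosome 3, was at 30.4 ± 1.70, 50.9 ± 7.39 and 75.5 ± 7.58 CPM, again without overlap between the groups (log2 fold changes 0.73 ± 0.10 and 1.29 ± 0.10). Gstm5 was called higher in CD11b+ AMs alone of the 2 sorts (1.04 ± 0.22, adjusted p = 5.72e-04, and 0.36 ± 0.22, adjusted p = 0.256, in CD11b- AMs), and reads of an antisense gene, 4933431E20Rik, cannot be told apart from it without strand.

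Mgst2 followed the same order. CRE- AMs had 7.22, 5.85, 8.37, 5.56 and 4.70 CPM, CD11b- AMs 13.8, 9.81, 15.5, 18.2 and 17.002 CPM and CD11b+ AMs 45.9, 35.98, 48.2, 41.8 and 48.4 CPM. No sample of a later group in this order reached down to an earlier one (log2 fold change 1.21 ± 0.17, adjusted p = 2.58e-05, and 2.78 ± 0.18, adjusted p = 7.27e-11). The other microsomal members differed from it. Mgst3 was lower, at 162 ± 16.7, 114 ± 5.34 and 86.2 ± 5.29 CPM (log2 fold changes -0.52 ± 0.07 and -0.93 ± 0.07), and Mgst1 at 514 ± 50.9, 481 ± 27.7 and 566 ± 30.7 CPM was called in neither comparison with CRE- AMs (adjusted p = 0.282 and 0.139). Gsto1 had 347, 312, 309, 307 and 352 CPM in CRE- AMs, 344, 279, 247, 274 and 322 in CD11b- AMs and 171, 154, 133, 145 and 159 in CD11b+ AMs. The CRE- and CD11b- ranges overlapped (log2 fold change -0.16 ± 0.08, adjusted p = 0.178), and all CD11b+ samples lay below both (-1.11 ± 0.09, adjusted p = 1.30e-09).

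Prdx6 rose in both sorts. Its levels were 67.4, 54.4, 70.6, 65.7 and 65.5 CPM in CRE- AMs, 113, 113, 96.8, 113 and 109 CPM in CD11b- AMs and 205, 178, 186, 166 and 192 CPM in CD11b+ AMs, 3 ranges without overlap (log2 fold change 0.74 ± 0.08, adjusted p = 4.87e-07, and 1.504 ± 0.08, adjusted p = 3.13e-12). Prdx1 had 2363, 2601, 2465, 2176 and 2225 CPM in CRE- AMs and 3176, 3095, 2948, 2704 and 3091 CPM in CD11b- AMs. These ranges did not overlap (log2 fold change 0.34 ± 0.06, adjusted p = 3.35e-04). In CD11b+ AMs Prdx1 was at 2717 ± 187 CPM, a smaller change (log2 fold change 0.18 ± 0.06, adjusted p = 0.0191) whose call was lost without CD11b+ replicate 5 (log2 fold change 0.15, adjusted p = 0.0605) and without CRE- replicate 4 (0.15, adjusted p = 0.06). Srxn1, sulfiredoxin, which reactivates overoxidized peroxiredoxins, had 50.8, 68.2, 71.7, 50.6 and 51.6 CPM in CRE- AMs, 109, 101, 95.6, 77.5 and 79.1 CPM in CD11b- AMs and 102, 87.2, 104, 73.3 and 91.8 CPM in CD11b+ AMs. Both CRE+ ranges lay above the CRE- range and overlapped each other (log2 fold change 0.65 ± 0.12, adjusted p = 5.83e-04, and 0.63 ± 0.12, adjusted p = 3.17e-04). Prdx5 was higher in CD11b+ AMs (0.31 ± 0.06), Prdx3, the mitochondrial peroxiredoxin, in CD11b- AMs (0.25 ± 0.07), and Prdx4 was lower in CD11b+ AMs (-0.33 ± 0.10). The CD11b+ calls of Prdx1 and Prdx4 were lost in a fit over all 33 samples (adjusted p = 0.168 and 0.0841). Prdx2 was called in neither.

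Nqo1 had 1.34, 2.44, 7.23, 2.99 and 0.708 CPM in CRE- AMs, 12.3, 16.02, 11.7, 10.2 and 11.8 CPM in CD11b- AMs and 7.62, 9.08, 17.5, 8.16 and 14.3 CPM in CD11b+ AMs. The highest CRE- sample lay below the lowest sample of either sort (log2 fold change 2.06 ± 0.42, adjusted p = 0.0012, and 1.92 ± 0.42, adjusted p = 9.77e-04). Of the genes for glutathione supply, Gclm, the regulatory ligase subunit, had 73.6, 84.2, 80.99, 90.1 and 72.4 CPM in CRE- AMs and 144, 142, 103, 109.8 and 131 CPM in CD11b- AMs. These did not overlap (log2 fold change 0.64 ± 0.11, adjusted p = 1.26e-04), and CD11b+ AMs, at 109 ± 15.1 CPM, were also called higher (0.43 ± 0.11, adjusted p = 0.00233). Gclc, the catalytic subunit, was called in neither (log2 fold changes 0.20 ± 0.12 and 0.15 ± 0.12). Gsr had 571, 583, 539, 501 and 462 CPM in CRE- AMs, 874, 736, 667, 719.9 and 706 CPM in CD11b- AMs and 527, 548, 507, 476 and 534 CPM in CD11b+ AMs. CD11b- samples lay above all others (log2 fold change 0.47 ± 0.07, adjusted p = 6.82e-05), and CD11b+ samples did not exceed the highest CRE- sample (-0.05 ± 0.07, adjusted p = 0.614). Gss was called higher in CD11b- AMs (0.44 ± 0.15, adjusted p = 0.0421), and 3 antisense genes overlap its exons. That call was lost without CD11b- AM replicate 1, 2 or 5 or CRE- AM replicate 1, 2 or 4 (log2 fold changes 0.30 to 0.46, adjusted p = 0.0504 to 0.143), with no filter on low counts (adjusted p = 0.0508) and with the replicate number as a block (adjusted p = 0.0545).

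Gpx4 was at 387 ± 36.6, 461 ± 18.6 and 601 ± 44.7 CPM in CRE-, CD11b- and CD11b+ AMs (log2 fold changes 0.25 ± 0.07 and 0.62 ± 0.07), while Gpx1 was at 1923 ± 216, 1957 ± 82.3 and 1932 ± 238 CPM and was not called (adjusted p = 0.912 and 0.942). Sod2 was higher in both sorts (log2 fold changes 0.38 ± 0.09 and 0.44 ± 0.09), and other genes, mainly AC166110.4 and Rps6ka2, share 25.2% of its 35-base windows. Sod1 was higher in CD11b+ AMs (log2 fold change 0.58 ± 0.13, adjusted p = 0.00122), and it was called in CD11b- AMs (0.37 ± 0.13, adjusted p = 0.0446) too. The latter call was lost without CD11b- AM replicate 1, 2, 4 or 5 or CRE- AM replicate 1, 2, 3 or 5 (log2 fold changes 0.29 to 0.39, adjusted p = 0.0594 to 0.117), with no filter on low counts (adjusted p = 0.0625) and with the replicate number as a block (adjusted p = 0.0634). Cat was at 146, 160.1, 168, 152 and 187 CPM in CD11b+ AMs, below the 235 to 272 CPM of CRE- AMs (log2 fold change -0.65 ± 0.07, adjusted p = 1.84e-07). Gstt3 was called lower in CD11b- AMs (-0.35 ± 0.10, adjusted p = 0.0168), but not in a fit over all 33 samples (adjusted p = 0.603). In the thioredoxin system, Txn1 (0.21 ± 0.06) and Txnrd1 (0.37 ± 0.09) were higher in CD11b- AMs, and the mitochondrial pair Txn2 (-0.46 ± 0.07) and Txnrd2 (-0.58 ± 0.13) was lower in CD11b+ AMs. In that fit the calls of Txn1 and Txnrd1 were lost (adjusted p = 0.235 and 0.0874). Nfe2l2 itself was not called in CD11b- AMs (0.02 ± 0.11, adjusted p = 0.922) and was called higher in CD11b+ AMs (0.32 ± 0.11, adjusted p = 0.0197), which was lost without CD11b+ replicate 4 or CRE- replicates 1, 2 or 5 (adjusted p = 0.0512 to 0.0595), and Keap1 was called in neither.

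**Figure D3:**
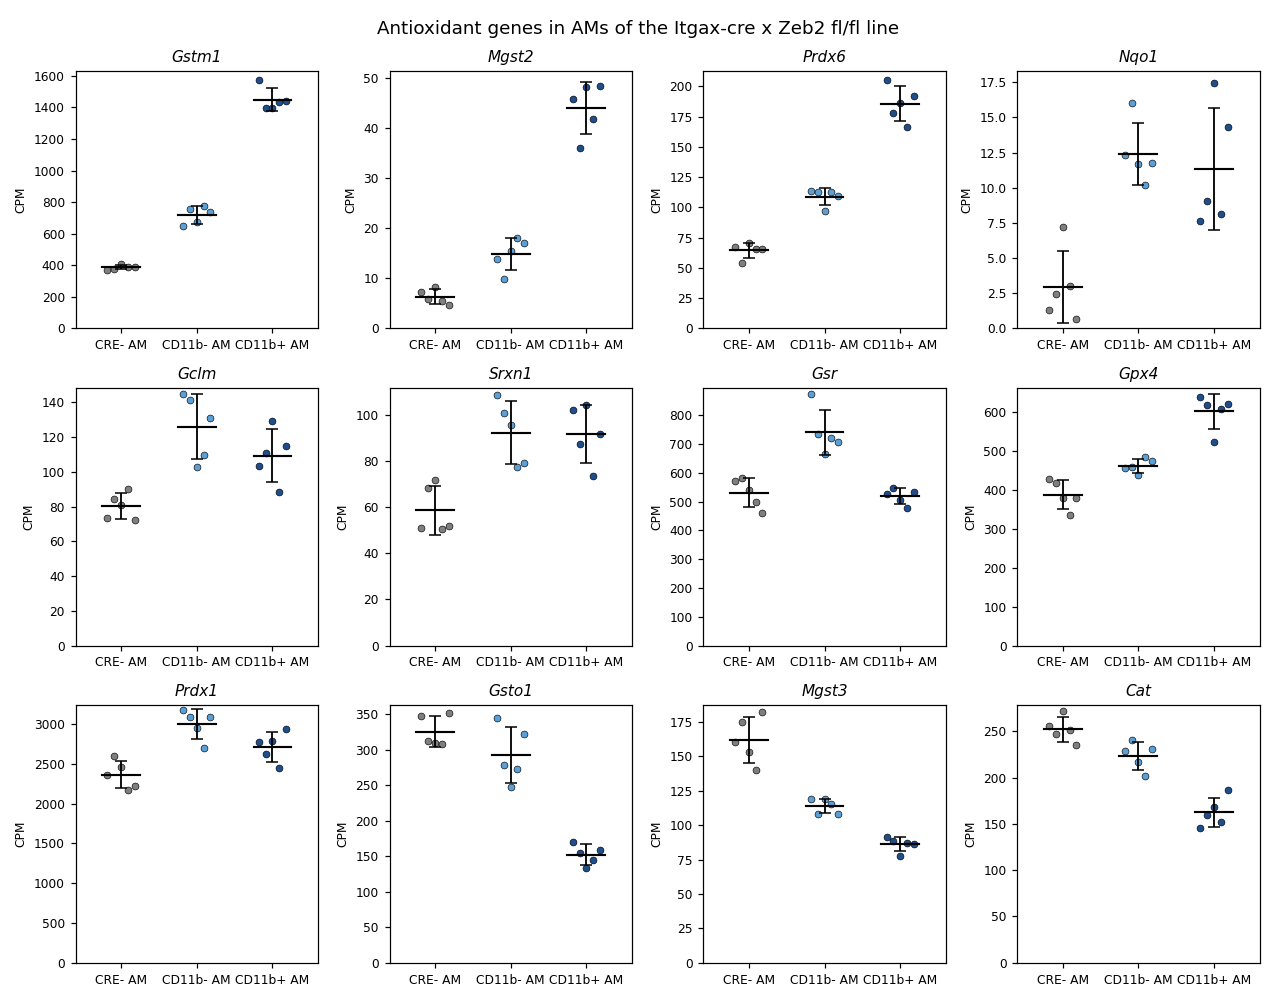
CPM of 12 members in CRE- AMs, CD11b- AMs and CD11b+ AMs (n = 5 each), on axes that start at 0. Points are samples, the horizontal line is the mean and the bar is the SD. Gstm1, Mgst2 and Prdx6 rise in 3 steps, Gsr is high in CD11b- AMs, and Gsto1 and Cat are low in CD11b+ AMs.

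CD11b+ and CD11b- AMs also differed from each other, with 11 members higher and 11 lower in CD11b+ AMs, 3 higher by more than 2-fold. Of all genes, 19.8% were higher and 16.6% lower, and 6.78% and 3.26% by more than 2-fold. The members past 2-fold were Mgst2 (log2 fold change 1.56 ± 0.17, adjusted p = 3.81e-07), Gstt2, a theta transferase (1.29 ± 0.19, adjusted p = 1.98e-05), and Gstm1 (1.001 ± 0.06, adjusted p = 1.13e-10). Gsr (-0.52 ± 0.07), Gss (-0.73 ± 0.16), Gsto1 (-0.95 ± 0.09), Prdx4 (-0.58 ± 0.10), Prdx3 (-0.31 ± 0.07), Cat (-0.47 ± 0.07) and Txn2 (-0.39 ± 0.07) were lower in CD11b+ AMs on the log2 scale, and Prdx6 (0.76 ± 0.08), Gpx4 (0.37 ± 0.07), Prdx5 (0.30 ± 0.06) and Gstm4 (0.56 ± 0.10) were higher. Gclm, Srxn1 and Nqo1 were not called between the sorts (adjusted p = 0.126, 0.933 and 0.82).

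Genes used as markers of other cells were summed in each AM library, and their ranges follow by group. The study gated total AMs for its single-cell sorts on CD64, F4/80, SiglecF and CD11c. The neutrophil list summed to 36.1 to 59.6 CPM in CRE- AMs, 807 to 2424 in CD11b- AMs and 8182 to 10481 in CD11b+ AMs, where 9 of 9 markers exceeded 1 CPM. S100a8 (4439 CPM), S100a9 (3662), Cxcr2 (573) and Csf3r (370.2) gave most of that sum. The remaining markers were lower, with means of 16.8 (Ltf), 14.7 (Mmp9), 3.32 (Ngp), 2.83 (Retnlg) and 0.777 CPM (Camp) in CD11b+ AMs. In CRE- AMs these had 0.172, 0.0662, 0, 0.0457 and 0.00950 CPM. The monocyte list summed to 5.97 to 10.8, 11.3 to 25.3 and 85.1 to 279.6 CPM, the B cell list to 7.64 to 12.8, 15.1 to 44.2 and 60.97 to 87.6 CPM, and the lung epithelial list to 94.7 to 115, 62.5 to 80.9 and 99.97 to 136 CPM. On the B cell list Ms4a1 had means of 3.19, 23.8 and 66.7 CPM, while Cd79a stayed at 3.36, 1.65 and 4.84 CPM. Of the T cell list, Cd2 gave nearly all counts in AMs and was already at 304 CPM in CRE- AMs, where Cd3e was at 0.536 CPM. On the hepatocyte list Trf was at 3272, 3220.1 and 8205 CPM, with Alb at 0.0708, 0 and 0 CPM. The part of these transcripts in the AM results was not tested.

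Around these members, 8 higher and 1 lower of 15 genes tested were called in CD11b- AMs and 11 higher and 1 lower of 15 in CD11b+ AMs among NRF2 regulators and other NRF2 targets. Of all genes, 13.3% were called higher and 12.5% lower in CD11b- AMs, and 22.8% and 20.4% in CD11b+ AMs. Osgin1 (log2 fold changes 1.73 ± 0.41 and 3.30 ± 0.42), the heme oxygenase Hmox1 (0.80 ± 0.15 and 1.09 ± 0.15), Akr1b8 (1.63 ± 0.22 and 0.83 ± 0.22) and the ferritin heavy chain Fth1 (0.39 ± 0.05 and 1.15 ± 0.05) were higher in both sorts. For transport and turnover the counts were 2 higher and 2 lower of 12 and 3 higher and 3 lower of 12, with the cystine importer Slc7a11 (1.91 ± 0.26 and 2.14 ± 0.27) and the glutathione-degrading Chac1 (2.17 ± 0.73 and 4.41 ± 0.74) higher. For NADPH supply they were 2 higher and 2 lower of 9 and 5 higher and 3 lower of 9, with Me1, malic enzyme, higher (1.38 ± 0.41 and 2.11 ± 0.41) and Idh1 lower (-0.28 ± 0.10 and -1.11 ± 0.10). Glutaredoxins and partners gave 3 higher and 2 lower of 14 and 5 higher and 1 lower of 14, Glrx being higher (0.62 ± 0.08 and 1.19 ± 0.08), and the NADPH oxidase gave 0 higher and 2 lower of 6 and 3 higher and 3 lower of 6, with Ncf1 lower (-0.81 ± 0.13 and -0.88 ± 0.13). Between CD11b+ and CD11b- AMs the counts in this order of lists were 7 higher and 1 lower of 15, 2 higher and 2 lower of 12, 2 higher and 2 lower of 9, 4 higher and 3 lower of 14 and 3 higher and 1 lower of 6. There 19.8% of all genes were called higher and 16.6% lower.

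In the liver, Tim4+ KCs and Tim4- KCs of Clec4f-crexZeb2 fl/fl mice were each compared with CRE- KCs. Few members changed in Tim4+ KCs, where Prdx6 was higher and Gpx1 and Gsr were lower. In Tim4- KCs Prdx6 and Gstm4 were higher, and Gsta4, Gstp2, Gstm5, Gstk1 and Gsr were lower. Of 47 members tested, 1 was called higher and 2 lower in Tim4+ KCs, none by more than 2-fold, against 3.65% and 2.48% of all 12500 genes, and 1.90% and 0.368% by more than 2-fold. In Tim4- KCs 3 members were called higher and 8 lower, 3 of the latter by more than 2-fold, against 12.2% and 13.1% of all genes, and 3.40% and 5.38% by more than 2-fold. The members' own shares were 2.13% and 4.26% in Tim4+ KCs and 6.38% and 17.02% in Tim4- KCs, a few genes away from the background. The median log2 fold change was 0.04 and -0.06 for members and -0.00 and -0.03 for all genes.

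Prdx6 had 30.8, 36.9 and 39.8 CPM as lowest, median and highest in CRE- KCs, 41.8, 62.2 and 65.5 CPM in Tim4+ KCs and 44.7, 52.9 and 62.1 CPM in Tim4- KCs. All CRE+ samples lay above all CRE- samples (log2 fold change 0.64 ± 0.12, adjusted p = 0.00118, in Tim4+ KCs, and 0.52 ± 0.12, adjusted p = 0.00249, in Tim4- KCs). Without the 6 libraries of male mice the Tim4+ change was 0.54 and no longer called (adjusted p = 0.0765). Gsr had 246, 275 and 310.3 CPM in CRE- KCs, 172, 208 and 244 CPM in Tim4+ KCs and 128, 153 and 220.4 CPM in Tim4- KCs. Both CRE+ ranges lay below that of CRE- KCs and overlapped each other (log2 fold change -0.43 ± 0.11, adjusted p = 0.0144, and -0.81 ± 0.11, adjusted p = 8.02e-06). The Tim4+ call was lost without the male libraries (-0.49, adjusted p = 0.0652). Gpx1 had 3464, 4258 and 4888 CPM in CRE- KCs and 2367, 2917 and 3575 CPM in Tim4+ KCs, ranges that overlapped (log2 fold change -0.53 ± 0.14, adjusted p = 0.0268). That call was lost without CRE- KC replicate 1 or 3 or Tim4+ KC replicate 1, 2, 4 or 6 (log2 fold changes -0.51 to -0.45, adjusted p = 0.0567 to 0.0901). In Tim4- KCs Gpx1 spread from 2318 to 4355 CPM and was not called (-0.34 ± 0.14, adjusted p = 0.0857).

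Soluble transferases made up the members that fell by more than 2-fold in Tim4- KCs, Gsta4, Gstp2 and Gstm5. Gstp2 had 25.5, 31.3 and 33.7 CPM as lowest, median and highest in CRE- KCs, 15.7, 20.8 and 31.6 CPM in Tim4+ KCs and 5.80, 6.83 and 8.98 CPM in Tim4- KCs. Every Tim4- sample lay below every other KC sample (log2 fold change over CRE- KCs -2.14 ± 0.16, adjusted p = 3.00e-09), and Tim4+ KCs were not called (-0.47 ± 0.15, adjusted p = 0.0664). Gstp1, with which it shares reads, was not called in Tim4- KCs (-0.26 ± 0.15, adjusted p = 0.211). Gsta4 had 3.35, 4.24 and 5.21 CPM in CRE- KCs, 0.783, 3.52 and 6.40 CPM in Tim4+ KCs and 0, 0.576 and 1.75 CPM in Tim4- KCs (log2 fold change -2.76 ± 0.69, adjusted p = 0.0052). All Tim4- samples were below all CRE- samples, at levels of few counts. Gstm5 was at 8.76 ± 1.82, 5.23 ± 0.757 and 3.72 ± 1.46 CPM in CRE-, Tim4+ and Tim4- KCs. Its 3 groups were ordered in this way, the CRE- range above both others, and only the Tim4- change was called (log2 fold change -1.24 ± 0.25, adjusted p = 7.98e-04, and -0.76 ± 0.24, adjusted p = 0.0713, in Tim4+ KCs). Gstk1, a kappa transferase of mitochondria and peroxisomes, was at 11.1 ± 1.55 CPM in CRE- and 6.34 ± 1.96 CPM in Tim4- KCs (log2 fold change -0.83 ± 0.19, adjusted p = 0.00309), and Gstm4 went up from 8.75 ± 2.45 to 14.6 ± 2.18 CPM (log2 fold change 0.72 ± 0.20, adjusted p = 0.0105). The calls of Gstk1 and Gstm4 were lost without the male libraries (adjusted p = 0.0612 and 0.112), as was that of Nfe2l2 (log2 fold change 0.32 ± 0.09, adjusted p = 0.0127, and 0.23, adjusted p = 0.164, without them).

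Of the other called members in Tim4- KCs, Txnrd3 (log2 fold change -0.90 ± 0.24, adjusted p = 0.00864) lost its call without the male libraries and in the fit over all 33 samples, with adjusted p = 0.139 and 0.106. Gclm was called lower (-0.33 ± 0.10, adjusted p = 0.0257), which was lost without CRE- KC replicate 2 or 6 or Tim4- KC replicate 3, 4 or 5 (log2 fold changes -0.31 to -0.28, adjusted p = 0.0522 to 0.0662) and without the male libraries (adjusted p = 0.18). Gpx7 was called lower (-0.81 ± 0.28, adjusted p = 0.0354), which was lost without CRE- KC replicate 1, 2 or 4 or Tim4- KC replicate 4, 5 or 6 (log2 fold changes -0.81 to -0.63, adjusted p = 0.0521 to 0.0813), in a fit over all 33 samples (adjusted p = 0.155) and without the male libraries (adjusted p = 0.101). Gclc (log2 fold changes 0.38 ± 0.12 and 0.15 ± 0.12), Gss, Keap1, Nqo1, Srxn1, Txn1, Txnrd1, Prdx1, Gpx4, Sod1, Sod2 and Cat were called in neither CRE+ group against CRE- KCs. Nqo1 stayed at 0.721 to 3.09 CPM in Tim4+ and 0 to 2.67 CPM in Tim4- KCs, levels at which small changes were not detectable. Prdx1 stood at 2610.3 CPM in Tim4- replicate 1, the shallowest library, and at 1485 to 1778 CPM in CRE- KCs.

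**Figure D4:**
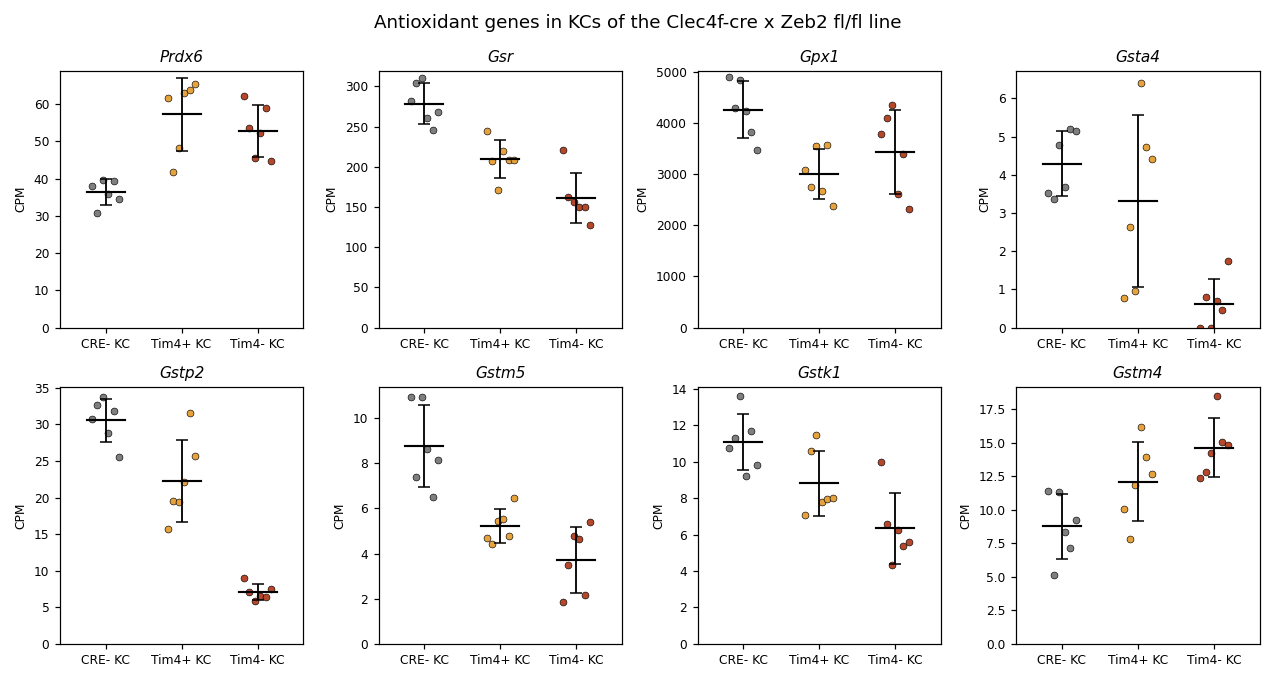
CPM of 8 members in CRE- KCs, Tim4+ KCs and Tim4- KCs (n = 6 each), on axes that start at 0. Points are samples, the horizontal line is the mean and the bar is the SD. Prdx6 lies higher in both CRE+ groups, Gsr lower in both, and Gstp2 and Gsta4 lowest in Tim4- KCs.

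Set against Tim4+ KCs, Tim4- KCs had 1 member called higher and 7 lower, 3 of these by more than 2-fold, where 3.80% and 7.61% of all genes were called, and 0.408% and 4.98% by more than 2-fold. Gsto1 was higher, at 121 to 143 CPM against 88.7 to 119.6 CPM, without overlap (log2 fold change 0.43 ± 0.09, adjusted p = 0.00303), and Gstp2 (-1.67 ± 0.16, adjusted p = 1.44e-06), Gstm2 (-1.47 ± 0.34, adjusted p = 0.00553) and Gsta4 (-2.37 ± 0.68, adjusted p = 0.0251) were lower. The call of Gsta4 was lost without Tim4+ KC replicate 4 or Tim4- KC replicate 5 (log2 fold changes -2.29 to -2.08, adjusted p = 0.0509 to 0.0679), and that of Gstm2 in the fit over all 33 samples (adjusted p = 0.0751). Gsr (-0.38 ± 0.11, adjusted p = 0.0199), Gstm1 (-0.90 ± 0.25, adjusted p = 0.023), Cat (-0.40 ± 0.11, adjusted p = 0.0247) and Gclm (-0.33 ± 0.10, adjusted p = 0.0428) were also called lower. The calls were lost for Gsr without Tim4+ KC replicate 1 (log2 fold change -0.33, adjusted p = 0.0571), for Gstm1 without Tim4- KC replicate 2 or 3 or Tim4+ KC replicate 5 or 6 (log2 fold changes -0.81 to -0.76, adjusted p = 0.0512 to 0.0605), for Cat without Tim4+ KC replicate 1 or 4 or Tim4- KC replicate 3 or 4 (log2 fold changes -0.39 to -0.32, adjusted p = 0.0528 to 0.0712) and for Gclm without Tim4+ KC replicate 1, 2, 4, 5 or 6 or Tim4- KC replicate 2, 3, 4 or 5 (log2 fold changes -0.34 to -0.28, adjusted p = 0.0589 to 0.108). Without the male libraries 2 members were higher and 2 lower, and the calls of Gsta4, Gsr, Gstm1, Cat and Gclm were lost (adjusted p = 0.0834, 0.221, 0.0814, 0.0533 and 0.272). With no filter on low counts the call of Gclm was lost too (adjusted p = 0.0582).

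Markers of other cells were summed in the KC libraries as well. The liver endothelial list, 8 of 8 markers over 1 CPM, summed to 603 to 1851 CPM in CRE- KCs, 1061 to 3082 in Tim4+ KCs and 346 to 461 in Tim4- KCs. The hepatocyte list summed to 2201 to 3213, 1689 to 3145 and 1442 to 2531 CPM, with Alb at means of 111, 114 and 69.9. The B cell list summed to 47.5 to 95.6, 103 to 145 and 155 to 286 CPM. Its Ms4a1 had means of 5.03, 81.1 and 144 CPM, and Cd79b of 47.6, 23.6 and 60.9 CPM. The monocyte list summed to 77.7 to 301, 94.7 to 328 and 283 to 814 CPM. The T cell list summed to 3.09 to 6.70, 6.10 to 17.999 and 2.13 to 32.9 CPM. Their part in the fall of Gstp2, Gsta4 and Gstm2 was not tested.

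Among the pathway lists, NRF2 regulators and other targets had 2 higher and 0 lower of 15 genes tested called in Tim4+ KCs and 4 higher and 3 lower of 15 in Tim4- KCs, with Maff higher in both (log2 fold changes 1.30 ± 0.37 and 1.66 ± 0.37) and Hmox1 (-1.07 ± 0.18) and Akr1b8 (-1.07 ± 0.34) lower in Tim4- KCs. Transport and turnover had 2 higher and 3 lower of 13 and 3 higher and 2 lower of 13, with Dpep2, a dipeptidase, higher (3.13 ± 0.40 and 3.79 ± 0.41) and Oplah, the oxoprolinase of the glutathione cycle, lower (-0.86 ± 0.17 and -1.999 ± 0.17). Glutaredoxins and partners had 2 higher and 1 lower of 14 and 3 higher and 2 lower of 14, with Glrx higher (1.23 ± 0.10 and 1.99 ± 0.10). NADPH supply had 1 higher and 1 lower of 9 and 2 higher and 1 lower of 9, with Taldo1, transaldolase, higher (0.77 ± 0.08 and 1.23 ± 0.08), and the NADPH oxidase 1 higher and 1 lower of 7 and 5 higher and 1 lower of 7. Nox1, a catalytic subunit, had no count in CRE- KCs and was at 4.35 ± 4.62 CPM in Tim4+ and 9.77 ± 7.97 CPM in Tim4- KCs, with wide spread. Between Tim4- and Tim4+ KCs the counts for the lists in this order were 0 higher and 3 lower of 15, 1 higher and 3 lower of 13, 1 higher and 1 lower of 14, 1 higher and 0 lower of 9 and 2 higher and 0 lower of 7. Of all genes, 3.65% were called higher and 2.48% lower in Tim4+ KCs over controls, and 12.2% and 13.1% in Tim4- KCs. For Tim4- over Tim4+ KCs the shares were 3.80% and 7.61%.

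Whether the CRE+ change differed between the tissues was tested directly, as the mean change of both CRE+ KC groups minus that of both CRE+ AM groups in a fit over all 33 samples. Of 49 members tested, 4 were called with a higher and 9 with a lower change in KCs than in AMs, 3 of the latter by more than 2-fold. Of all 13294 genes 9.96% and 9.46% were called, and 3.44% and 4.58% by more than 2-fold. Gstm5 (-1.69 ± 0.29, adjusted p = 4.05e-05), Gstm1 (-1.58 ± 0.25, adjusted p = 1.85e-05) and Gstp2 (-1.49 ± 0.34, adjusted p = 0.00125) had the differences past 2-fold on the log2 scale. Gstp2 had at most 1.67 CPM in any AM library and shares 53.4% of its windows with Gstp1, so the AM part of its difference is uncertain. In KCs it was called in Tim4- cells alone. Gstm1 was not called in either CRE+ KC group (log2 fold changes 0.24 ± 0.25 and -0.66 ± 0.25) and was higher in both AM sorts (0.88 ± 0.06 and 1.88 ± 0.06). Gsr was lower in KCs and higher in CD11b- AMs, a difference of -0.82 ± 0.12, adjusted p = 3.18e-06, Gclm differed by -0.69 ± 0.13, adjusted p = 2.43e-04, and Srxn1 by -0.60 ± 0.15, adjusted p = 0.00403. Prdx6, which was higher in CRE+ cells of both tissues, had a smaller mean change in KCs (-0.54 ± 0.13, adjusted p = 0.00177). Its change in CD11b- AMs was near those of the KC groups, and its change in CD11b+ AMs was larger. Sod2 differed by -0.54 ± 0.13, Gsto1 by 0.64 ± 0.11, Txnrd2 by 0.59 ± 0.14, Mgst3 by 0.57 ± 0.18 and Cat by 0.42 ± 0.13. Of these, Gsto1, Txnrd2 and Cat were called lower in CD11b+ AMs and not in CD11b- AMs, so the averaged difference does not hold for both sorts alike. The Gpx4 difference (-0.30 ± 0.10, adjusted p = 0.0285) was lost without CRE- AM replicate 3, 4 or 5 (adjusted p = 0.0513, 0.0799 and 0.0505), and that of Mgst3 without the male libraries (adjusted p = 0.192).

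**Figure D5:**
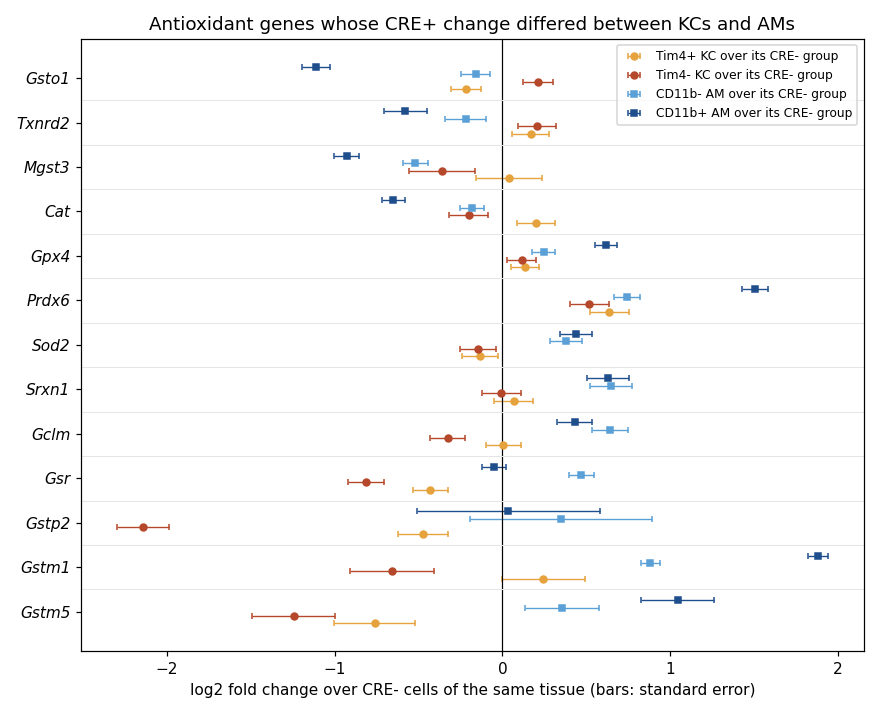
For the 13 members called in the test of the tissue difference, points are log2 fold changes of each CRE+ group over the CRE- cells of its tissue, with standard errors. Circles are KCs and squares AMs. For Gstm1 both AM sorts lie to the right of both KC groups, and for Gsto1 and Txnrd2 CD11b+ AMs lie farthest to the left.

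In the same test, 1 higher and 5 lower of 15 genes tested were called among NRF2 regulators and other targets, 2 higher and 2 lower of 14 for transport and turnover, 3 higher and 3 lower of 14 for glutaredoxins and partners, 3 higher and 1 lower of 9 for NADPH supply and 3 higher and 1 lower of 7 for the NADPH oxidase. Of all genes, 9.96% were called higher and 9.46% lower. Osgin1 (-2.23 ± 0.35), Hmox1 (-1.42 ± 0.22) and Akr1b8 (-1.32 ± 0.39) had a lower change in KCs on the log2 scale, and Dpep2 (4.08 ± 0.38) a higher one.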

How the data were processed

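RNA of 25000 sorted cells per sample was sequenced from 33 samples in 6 groups. Per the submitters' processing notes, read quality was looked at with FastQC 0.11.4, Trimmomatic 0.35 removed bases below quality 20 and reads shorter than 35, TopHat2 2.1.0 mapped the reads to mm10, and SAMtools 0.1.18 handled the alignments. The authors then counted reads per gene with HTSeq-count, and the deposited values are raw counts per gene, not normalized. The HTSeq version, annotation and strand setting are not given in the sources used here. The 5 tally rows of each file (reads on no gene, ambiguous reads and the like), 5.88% to 10.1% of its total, were left out. Libraries held 9837240 to 24332306 reads on genes, with a median of 20683608. That depth sets the precision of the low members, and floors of 3 counts cover counting error only. A chi-square of the counts of any 2 replicates came to at least 11.061 per gene, so no library appeared to be deposited again.

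The members and gene lists were chosen with earlier results of these data known. The rule for named genes was to name, per comparison, the called members with more than a 2-fold change, a fixed backbone (Gclc, Gclm, Gss, Gsr, Nfe2l2, Keap1, Nqo1, Srxn1, Txn1, Txnrd1, Prdx1, Gpx1, Gpx4, Sod1, Sod2 and Cat) by values or counts, and up to 3 called genes of each pathway list by size of change. Other called members named in the text were added after their values were seen. edgeR 4.0.16 (R 4.3.3) was run with TMM factors, its default filter on low counts and the robust quasi-likelihood test, with Benjamini-Hochberg adjustment over all genes of a fit. A gene was called at an adjusted p under 0.05. Control KCs and AMs were fitted alone, KC comparisons on the 18 KC samples, AM comparisons on the 15 AM samples, and the tissue difference on all 33. The study used limma-voom, which is an alternative here (limma 3.58.1), with DESeq2 1.42.0, RLE factors, no filter, at least 10 counts in every sample, a 2-fold requirement, a fit over all 33 samples, a replicate block, leaving out the libraries of male mice, and leaving out each replicate. The edgeR, limma-voom and DESeq2 fits were run on simulated counts for Tim4- over CRE- KCs only, with the same spread set for every gene. The AM, control and tissue-difference fits were not simulated. CPM values use TMM factors over the 33 libraries. Shared sequence was measured as the share of a gene's 35-base windows found in another gene's transcripts. Tables were handled with Python 3.11.15, pandas 2.3.3 and numpy 2.4.6, and plots drawn with matplotlib 3.10.9.

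Groups share replicate numbers, but the sources do not say that a number marks a shared mouse or day, and in no comparison were the deviations of all same-numbered pairs correlated above 0.1, so the fits had no replicate block.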

Additional observations from a re-analysis of the deposited data

Results flagged for a closer look

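In 10 of the 224 groups looked at, each a member at a mean of at least 5 CPM in 1 group, the highest or lowest sample lay far from the others by Dixon's test, and chance flags about 1 in 20 groups. Among KCs, Gpx3 was at 123.07 CPM in Tim4+ replicate 1, below the other Tim4+ samples. Gsto1 was at 119.63 CPM in Tim4+ replicate 5, above the others. Gstp1 was at 73.513 CPM in CRE- replicate 5 and Sod1 at 76.824 CPM in CRE- replicate 1, each above the other CRE- samples. In Tim4- replicate 1, the shallowest library, Prdx1 was high at 2610.3 CPM and Keap1 low at 67.054 CPM. Among AMs, Prdx6 was low at 54.352 CPM in CRE- replicate 2 and at 96.757 CPM in CD11b- replicate 3. Gpx4 was low at 523.28 CPM in CD11b+ replicate 3, and Gstm1 was high at 1571.5 CPM in CD11b+ replicate 1.

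For 13 members the CRE+ change differed between KCs and AMs by the edgeR test of that difference. The value is the mean log2 change of both CRE+ KC groups minus that of both CRE+ AM groups. It was lower in KCs for Gstm5 (-1.6936), Gstm1 (-1.5842), Gstp2 (-1.493), Gsr (-0.824), Gclm (-0.68776), Srxn1 (-0.59995), Sod2 (-0.53899), Prdx6 (-0.53845) and Gpx4 (-0.29906). It was higher in KCs for Gsto1 (0.64099), Txnrd2 (0.59246), Mgst3 (0.57083) and Cat (0.42265).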

How the results depend on the processing

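No call of a member changed direction in any alternative that gave a value for it. Members not called and genes of the pathway lists were not checked for this. Of the 135 calls of members, 106 held in every alternative that gave a value, leave-one-out fits aside. Requiring more than a 2-fold change left, as members higher and lower, 14 and 8 for CRE- KCs over CRE- AMs, 0 and 0 for Tim4+ KCs over controls, 0 and 3 for Tim4- KCs over controls, 0 and 3 for Tim4- against Tim4+ KCs, 2 and 0 for CD11b- AMs over controls, 6 and 1 for CD11b+ AMs over controls, 3 and 0 for CD11b+ against CD11b- AMs, and 0 and 3 for the tissue difference. With at least 10 counts in every sample, which tests fewer genes, 16 members were higher in CRE- KCs than in CRE- AMs. In Tim4+ KCs DESeq2 gave 2 higher and 5 lower, limma-voom 4 lower, and the fit over all 33 samples 2 higher. That fit gave 5 higher in Tim4- KCs and 2 higher in Tim4- over Tim4+ KCs. Without the libraries of male mice, which leaves 4 samples in each KC group, there was no member higher (0) in Tim4+ KCs, 1 higher and 4 lower for Tim4- KCs over controls, and 2 higher and 2 lower for Tim4- against Tim4+ KCs. Other than the smaller numbers of genes or samples named, the cause was not tested.

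Leaving out each replicate gave, as members higher and lower, 23 to 25 and 11 to 14 in CRE- KCs over CRE- AMs, 1 to 2 and 1 to 3 for Tim4+ KCs over controls, 3 to 4 and 6 to 10 for Tim4- KCs over controls, 1 to 1 and 4 to 9 for Tim4- against Tim4+ KCs, 14 to 16 and 2 to 3 for CD11b- AMs over controls, 14 to 16 and 6 to 7 for CD11b+ AMs over controls, 9 to 11 and 9 to 12 for CD11b+ against CD11b- AMs, and 4 to 6 and 8 to 12 in the tissue difference.

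With the replicate number as a block, members higher and lower were 25 and 12, 1 and 2, 3 and 11, 1 and 9, 14 and 3, 15 and 7, 11 and 12, and 5 and 11, in the same order, which moved no count of calls by more than 1.5 times. In Tim4- and Tim4+ KCs the lowest correlation of same-numbered samples was 0.0938, and 6 of 6 correlated best with their own number, a hint from the data and not from the design. Their mean correlation was 0.155, against -0.0309 for other numbers. For CD11b+ against CD11b- AMs the means were 0.0626 and -0.0156, and 4 of 5 correlated best with their own number. For CD11b+ against CRE- AMs this was also 4 of 5, at means of 0.0286 and -0.00716.

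The members near the floor (Gstm6, Gstm7, Gsta4, Gstt1, Gpx7 and Nqo1 among them) carry the widest errors, and their fold changes against groups near 0 depend on the prior count. Copies share reads with Gstp1, Gstp2, Gstm1, Gpx4 and Sod2.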
